A study of Homo sapiens with 6 samples.

Results

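The group of miR-103 and miR-107 comprises small RNAs encoded within introns of the pantothenate kinase genes (PANK1, PANK2 and PANK3), with miR-103b on the opposite strand. The members were taken by name from the deposited expression table, and 4 of its 2588 mature miRNAs belong to the group, namely hsa-miR-103a-3p, hsa-miR-107, hsa-miR-103a-2-5p and hsa-miR-103b. Huh7 cells, a human hepatoma cell line, received by lipofection either the PLC5-CIR plasmid with hsa_circ_0098181, a circular RNA of the SOX5 gene (overexpression group, 3 samples), or its control plasmid (control group, 3 samples). In both groups total RNA was taken 48 h later for miRNA sequencing. The samples came from 1 cell line, and nothing in the sources used here says whether the replicates were separate cultures, so that the p-values measure the spread between these samples, which may be technical.

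Pantothenate kinases carry out the first and rate-limiting step of coenzyme A synthesis, on which fatty acid synthesis and oxidation depend. miR-103a-3p and miR-107 are guide strands, the strands that Argonaute proteins keep to repress mRNAs. Their known targets include CAV1, which stabilizes the insulin receptor in fat cells, and DICER1, the enzyme that makes mature miRNAs. In the liver, both miRNAs have been tied to insulin sensitivity and lipid metabolism.

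In GENCODE release 29 (GRCh38), MIR103A1 lies at chr5:168560896-168560973 on the minus strand within PANK3, MIR103A2 at chr20:3917494-3917571 on the plus strand within PANK2, and MIR107 at chr10:89592747-89592827 on the minus strand within PANK1. Each lies on the strand of its host, in intron 5 of the principal transcript of that gene, which has 7 exons in all 3 cases, and no annotated exon of the hosts overlaps any of these precursors. MIR103B1 and MIR103B2, the precursors of miR-103b, lie at chr5:168560904-168560965 and chr20:3917502-3917563, on the strand opposite to the host, inside the same introns.

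The mature sequences of all 4 members were found in RefSeq (GRCh38.p14) and are shown because the members' resemblance decides how their reads can be told apart. Bases 2 to 8, the seed that pairs with target mRNAs, are in capitals. hsa-miR-16-5p is added as a member of the miR-15/16 family, whose seed is nearly the same.
hsa-miR-103a-3p: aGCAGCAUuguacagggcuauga
hsa-miR-107: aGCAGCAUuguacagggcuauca
hsa-miR-103a-2-5p: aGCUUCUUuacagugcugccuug
hsa-miR-103b: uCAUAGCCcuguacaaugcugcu
hsa-miR-16-5p: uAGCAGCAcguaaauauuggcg

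miR-103a-3p and miR-107 share the seed GCAGCAU, and no other of the 2281 miRNAs of the table with a RefSeq sequence has it. Counted from the 5′ end of miR-103a-3p, they differ by the single substitution G22C, where the first base is that of miR-103a-3p. Their first 21 of 23 bases are the same, so that a read ending before base 22 cannot be assigned to one of them. The precursors MIR103A1 and MIR103A2 yield the same miR-103a-3p, and its count is the sum over both loci. The seed of miR-16-5p, AGCAGCA, is contained in miR-103a-3p and miR-107 from base 1 to base 7, 1 position away from their own seed. hsa-miR-103b is the reverse complement of miR-103a-3p over all 23 bases.

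The 6 samples had 7144798 to 10786295 counts, with a median of 8379124. Control replicate 3 stood apart from the other controls, with a median absolute log2 difference of 0.21 from each of them over 152 abundant miRNAs, against 0.049 between control replicates 1 and 2. From the overexpression samples it differed less, by 0.12 to 0.19, and control replicates 1 and 2 differed from them by 0.13 to 0.19. Why this was so was not tested. Results that rest on control replicate 3 are given with and without this sample. Hepatocyte miRNAs (miR-122-5p, miR-192-5p, miR-194-5p and miR-148a-3p) reached a sum of 422224 to 434247 TPM with hsa_circ_0098181 and of 403377 to 435127 TPM with the control plasmid, where TPM is the deposited value, the count scaled to the same total in every sample. Within this sum, miR-122-5p held most (321241 to 338897 TPM with hsa_circ_0098181 and 306227 to 324913 TPM with the control plasmid, overlapping). miR-148a-3p was lower without overlap (49911 to 56200 TPM against 56677 to 63572 TPM), as were 16.3% of the 552 miRNAs described below. miR-192-5p and miR-194-5p overlapped. The 15 marker miRNAs of blood, endothelial, stromal, muscle and neural cells, of which 0 were absent from all samples, summed to 4431 to 4600 TPM and 4111 to 4569 TPM, and miR-126-3p and miR-126-5p held most of this (3811 to 4341 TPM over all samples). The 4 blood cell miRNAs among them summed to 12.8 to 13.7 TPM with hsa_circ_0098181 and to 16.04 to 18.55 TPM with the control plasmid. These ranges did not overlap. Most of the sum was miR-142-3p (8.38 to 9.78 TPM against 12.1 to 16.8 TPM). On this scale, of the 552 miRNAs that passed the filter on low counts, 90 were lower without overlap (16.3%) and 11 higher. miR-142-5p was higher without overlap (0.362 to 0.501 TPM against 0.140 to 0.278 TPM), while miR-150-5p and miR-223-3p overlapped. The 4 stromal miRNAs summed to 115 to 123 TPM and 123 to 132 TPM, with a slight overlap. The part of these markers in the results was not tested. As values are shares of a bulk library, fewer cells making a miRNA and less of it per cell cannot be told apart.

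miR-103a-3p was an abundant miRNA of these cells, and miR-107 was far less abundant. By the mean TPM over the 6 samples, miR-103a-3p was number 9 of the 1366 miRNAs with a count, at 18713 ± 993 TPM (SD, n = 6). It lay below miR-93-5p in 6 of 6 samples and above miR-20a-5p in 6 of 6 samples. miR-107 was number 63, at 896 ± 46.8 TPM (SD, n = 6). Its neighbours in the order were miR-218-5p (963 ± 22.3 TPM, SD, n = 6) and miR-320a (892 ± 166 TPM, SD, n = 6), and miR-107 was above miR-218-5p in 1 of 6 samples and above miR-320a in 3 of 6 samples, so that it was not separated from miR-320a beyond the spread. Together miR-103a-3p and miR-107 held 1.99% ± 0.0400 of the library with hsa_circ_0098181 and 1.93% ± 0.143 with the control plasmid (SD, n = 3 each). This difference of 0.0585 percentage points was smaller than the control spread (two-sided exact permutation test, p = 0.6), and it was -0.0081 without control replicate 1 and 0.134 without control replicate 3. With miR-122-5p, the most abundant miRNA, taken out of the total, it was 0.163. miR-103a-3p made up 94.9% to 95.8% of the sum.

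For hsa-miR-103a-3p, the overexpression replicates 1, 2 and 3 held 154198, 157738 and 158899 counts, and the control replicates 184048, 158035 and 142043 counts. In TPM, this was 19327, 18625 and 19169 for the overexpression replicates and 17063, 18213 and 19881 for the control replicates. On this scale the groups overlapped, and control replicate 3 had the highest value of all. In overexpression replicate 1, the 95% exact binomial interval ran from 19231 to 19422 TPM, so that counting error was small beside the spread between samples. Intervals here cover counting error only.

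After scaling by edgeR's TMM factors, which equalize libraries on the bulk of their miRNAs and were 0.921 to 0.996 in the overexpression and 1.00 to 1.09 in the control samples, miR-103a-3p was at 19401, 20237 and 19826 CPM with hsa_circ_0098181 and at 16988, 17656 and 18280 CPM with the control plasmid. Every overexpression sample then lay above every control sample, as was found for 8.88% of the 552 miRNAs that passed the filter on low counts. The means were 19821 ± 418 and 17641 ± 646 CPM (SD, n = 3 each), which is a ratio of 1.12 or a log2 fold change of 0.17, with a standard error of 0.066 and a 95% confidence interval from 0.026 to 0.31. The quasi-likelihood test of edgeR gave an unadjusted p of 0.0237 and, after Benjamini-Hochberg adjustment over all miRNAs tested, 0.421, so that the difference did not pass the threshold of 0.05. An unadjusted p under 0.05 was found for 9.06% of the 552 miRNAs, 24 higher and 26 lower, and with the library size as the only scaling for 1 higher and 69 lower.

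For hsa-miR-107, the overexpression replicates held 7242, 7047 and 6983 counts, and the control replicates 9931, 8067 and 6729 counts. In TPM, it was at 908, 832 and 842 with hsa_circ_0098181 and at 921, 930 and 942 with the control plasmid. Here every overexpression sample lay below every control sample, as did 16.3% of the 552 miRNAs on this scale. With TMM factors, the values were 911, 904 and 871 CPM against 917, 901 and 866 CPM, and the groups overlapped almost entirely. The fitted log2 difference was 0.0014 with a standard error of 0.085 and an adjusted p of 0.996 from edgeR, and its 95% confidence interval ran from -0.18 to 0.19.

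**Figure D1:**
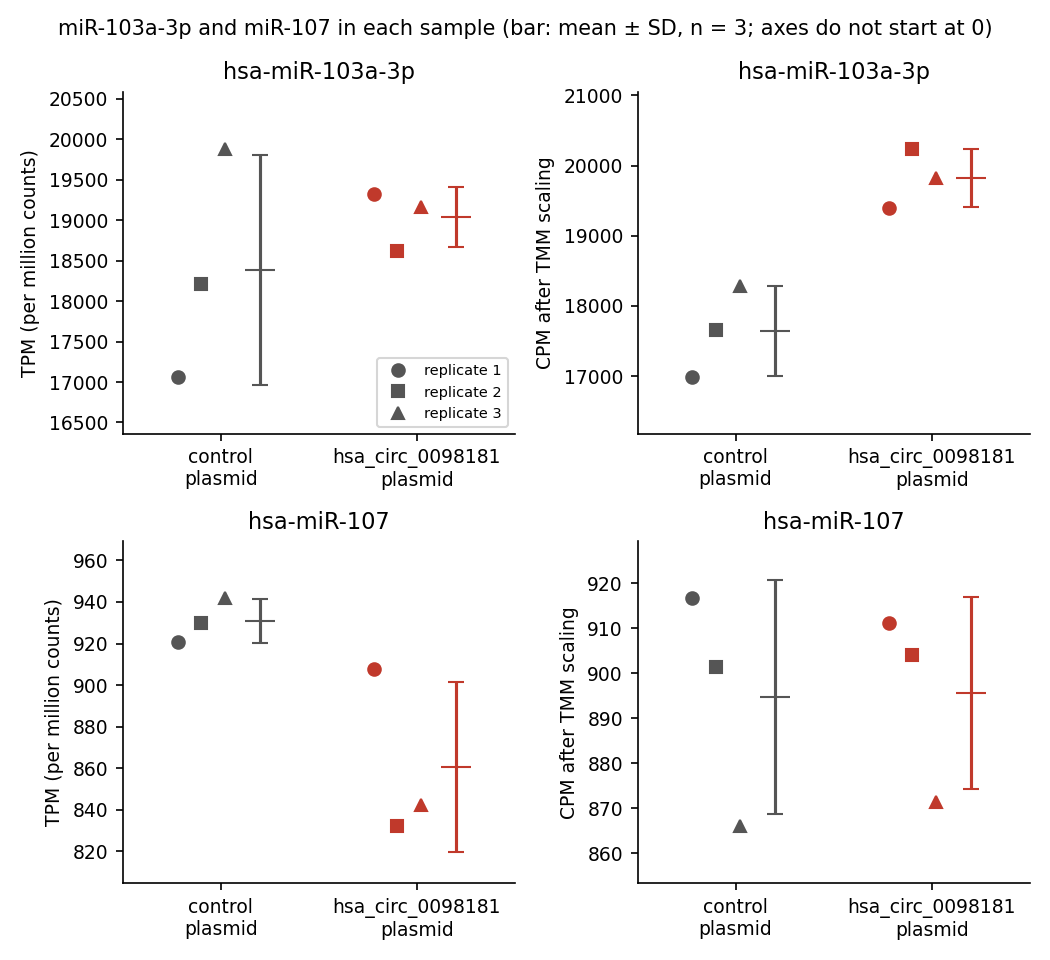
TPM (left) and CPM after TMM scaling (right) of miR-103a-3p (top) and miR-107 (bottom) in each of the 3 control and 3 overexpression samples, with the group mean and SD beside the points. With TMM factors, miR-103a-3p is at 19401 CPM or more in every overexpression sample and at 18280 CPM or less in every control sample, whereas the groups of miR-107 overlap.

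The scaling moved both miRNAs together with the library. When no factors were used beyond the library size, the fitted log2 difference was 0.050 for miR-103a-3p (adjusted p = 0.82 from edgeR) and -0.11 for miR-107 (adjusted p = 0.631 from edgeR), and the median of all tested miRNAs moved to -0.11 from 0.0038. Relative to that median, miR-103a-3p was 0.16 above with TMM factors and 0.16 above with the library size alone. Over the 12 alternative fits it stayed 0.15 to 0.18 above the median. For miR-107, the difference from the median was -0.0024 with TMM factors and -0.039 to 0.028 in the alternative fits.

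**Figure D2:**
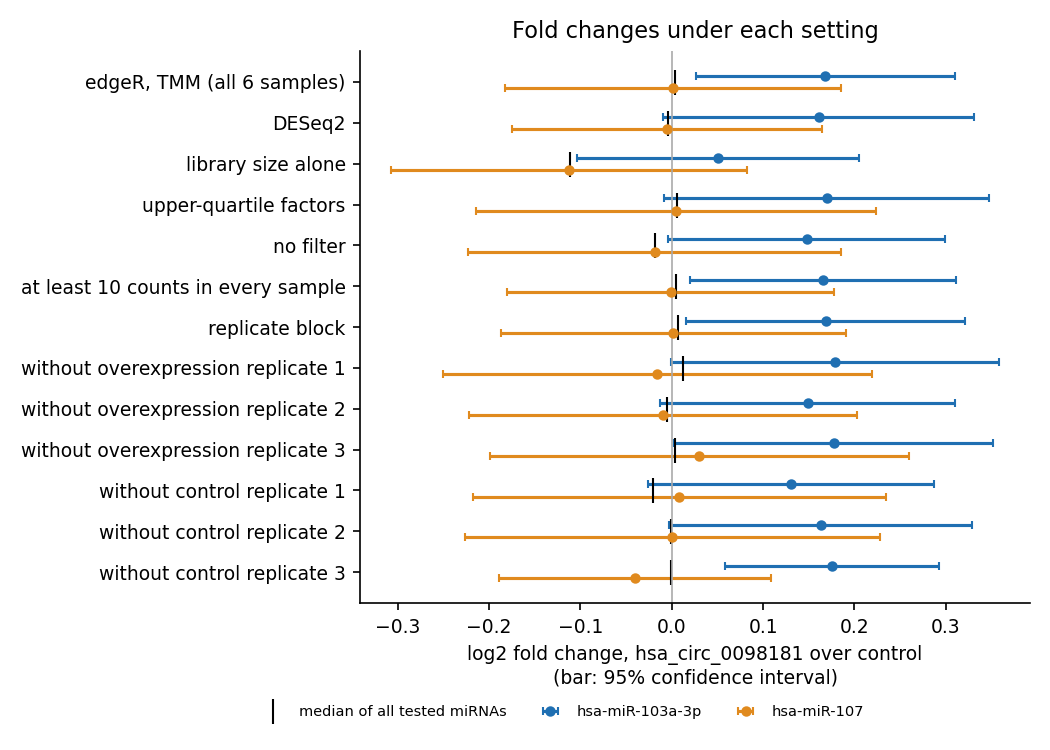
Log2 fold change of miR-103a-3p and miR-107 (points, with 95% confidence intervals) and the median of all tested miRNAs (black ticks) under the fit with all 6 samples and under 12 alternatives. miR-103a-3p lies to the right of the median in every row, and miR-107 lies from -0.039 to 0.028 around it.

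Of the 4 members, 3 passed the filter and 0 of these 3 passed the adjusted threshold of 0.05 with all 6 samples, as did 0% of the 552 miRNAs by edgeR and 0 by DESeq2 (44 at an unadjusted p under 0.05). At an unadjusted p under 0.05 the count was 1 of 3, miR-103a-3p. Without control replicate 3, miR-103a-3p passed, higher with hsa_circ_0098181 by 0.18 on the log2 scale (standard error 0.058, adjusted p = 0.0419 from edgeR). In this fit 9.91% of 565 miRNAs passed. In the 11 other alternatives, its adjusted p was between 0.424 and 0.989. For miR-107 the value without this sample was -0.040 (adjusted p = 0.815 from edgeR). A sum of both rows does not depend on how reads were divided between them, but it would on reads left out or counted in both. With both rows replaced by their sum, the log2 fold change was 0.16 (standard error 0.065, adjusted p = 0.424 from edgeR) with all samples. It was 0.20 without control replicate 3 (adjusted p = 0.0255 from edgeR).

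The balance between the miRNAs of the different hosts does not depend on the library size. miR-107 amounted to 4.70%, 4.47% and 4.39% of the miR-103a-3p count in overexpression replicates 1 to 3 and to 5.40%, 5.10% and 4.74% in control replicates 1 to 3. All 3 overexpression samples lay below all 3 control samples, with the smallest gap between overexpression replicate 1 and control replicate 3. The log2 ratio was -4.47 ± 0.0499 with hsa_circ_0098181 and -4.30 ± 0.0942 with the control plasmid (SD, n = 3 each), a difference of -0.17. In the two-sided exact permutation test p was 0.1, the smallest value that 3 samples against 3 allow, and 0.3 after adjustment over the 3 ratios tested. Without control replicate 3 the difference was -0.22, and without control replicate 1 it was -0.12.

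The same ratio was computed for each of the 551 other tested miRNAs. For 20.1% of them, every overexpression sample had a lower ratio to miR-103a-3p than every control sample, and the median difference of the log2 ratio was -0.16. miR-107 was therefore near the middle, with 271 of the 551 miRNAs showing a lower value. The lower share of miR-107 was thus no larger than that of a typical miRNA set against miR-103a-3p.

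**Figure D3:**
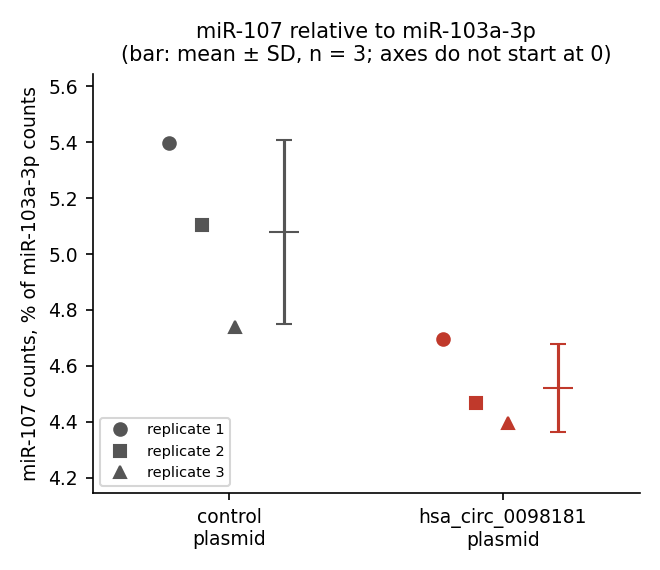
Count of miR-107 as a percentage of the count of miR-103a-3p in each sample, with the group mean and SD. The overexpression samples sit between 4.39% and 4.70% and the control samples between 4.74% and 5.40%.

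hsa-miR-103a-2-5p, the passenger strand of the PANK2 copy, was close to the detection limit. The overexpression replicates 1, 2 and 3 held 16, 6 and 12 counts, and the control replicates 22, 2 and 6 counts. The highest value, 2.04 TPM in control replicate 1, had a 95% exact binomial interval of 1.28 to 3.09 TPM, and the lowest, 0.230 TPM in control replicate 2, had an interval of 0.0279 to 0.833 TPM, so that the controls alone covered the whole range of the overexpression samples. The log2 fold change was 0.41 (standard error 0.59, adjusted p = 0.8 from edgeR) and was between -0.054 and 1.53 when a sample was left out. It was -0.054 without control replicate 2 and 1.53 without control replicate 1 (adjusted p = 0.545 from edgeR), so that these libraries with the lowest and the highest count decide its direction and size.

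For each count of miR-103a-2-5p there were 8366 to 79018 counts of miR-103a-3p. The log2 ratio of the passenger strand to miR-103a-3p was -13.8 ± 0.703 with hsa_circ_0098181 and -14.5 ± 1.48 with the control plasmid (SD, n = 3 each), and the difference of 0.66 was smaller than the spread (two-sided exact permutation test, p = 0.7, adjusted over 3 ratios 0.7). Without control replicate 2 it was -0.090. This is no arm balance of a single precursor, as miR-103a-3p also comes from MIR103A1. The 5′ arms of the other precursors resemble this member closely. With positions counted from its 5′ end and its own base first, the matching window of MIR103A1 differs by A1G and that of MIR107 by C16U. The passenger strand of MIR103A1 was not analysed here.

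hsa-miR-103b had 0 counts in all 6 samples. As a one-sided 95% limit, unlike the two-sided intervals of the other members, a count of 0 allows up to 3 counts. This is 0.278 TPM in control replicate 1, the deepest sample, and 0.420 TPM in control replicate 3, the shallowest. miR-103a-3p, its reverse complement, had at least 17063 TPM in the same libraries. How the counting treated the orientation of reads is not given in the sources used here.

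The miR-15/16 family, whose seed is shifted by 1 base, held 7.61 to 8.15 times as many counts as miR-103a-3p and miR-107 together. Its 6 listed members were all tested, of which 1 had a log2 fold change above 0 and 5 below, with a median of -0.077, against 281 above and 271 below and a median of 0.0038 for all tested miRNAs. Of the 6, 0 passed the threshold by edgeR. For 2 of the 6 the unadjusted p was under 0.05, a larger share than the 9.06% of all 552 miRNAs. Of these 2, 1 was lower with hsa_circ_0098181. This list too was chosen with earlier results known, and the difference in share was not tested. hsa-miR-16-5p, the most abundant of them and a repressor of cell cycle genes, stood at 0.14 (standard error 0.056, adjusted p = 0.421 from edgeR). hsa-miR-424-5p, made from the X chromosome, had -0.32 (standard error 0.13, adjusted p = 0.421 from edgeR). The other 4, miR-15a-5p, miR-15b-5p, miR-195-5p and miR-497-5p, were between -0.13 and -0.017. Without control replicate 3, miR-424-5p (-0.48, adjusted p = 1.89e-05 from edgeR) and miR-15a-5p (-0.22, adjusted p = 0.0302 from edgeR) passed the threshold, both lower, in a fit where 9.91% of 565 miRNAs passed and 38 of these were lower.

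As a sum, miR-103a-3p and miR-107 amounted to 12.3%, 12.8% and 13.1% of the counts of the miR-15/16 family in overexpression replicates 1 to 3 and to 12.3%, 12.6% and 12.6% in control replicates 1 to 3. The groups overlapped. The log2 ratio was -2.97 ± 0.0450 with hsa_circ_0098181 and -3.002 ± 0.0213 with the control plasmid (SD, n = 3 each), and the means differed by 0.030, for which the exact permutation test (two-sided) gave p = 0.4, or 0.6 adjusted over 3 ratios. The difference was between 0.0083 and 0.053 when a sample was left out. Within the family, miR-16-5p held 7640356 counts over all samples, and miR-15b-5p, the next, held 189455. The ratio therefore mostly compares with miR-16-5p and says little on the less abundant family members.

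Other miRNAs tied to hepatic lipid and insulin metabolism were described from a list of 25, of which 22 were tested, while miR-802, miR-206 and miR-155-5p had too few counts (1, 6 and 24 in all). Of the 22, 14 had a log2 fold change above 0 and 8 below, with a median of 0.068, against 281 above and 271 below and a median of 0.0038 for all tested miRNAs. With the library size alone the medians were -0.048 and -0.11. Of the list, 0 passed the threshold by edgeR. An unadjusted p under 0.05 was found for 6 of the 22, a larger share than the 9.06% of all 552 miRNAs. Of these 6, 3 were lower with hsa_circ_0098181. The list was chosen with earlier results of these data known, and the difference in share was not tested. The largest values belonged to miR-223-3p, a myeloid miRNA with 6 to 28 counts a sample (0.45, standard error 0.43, adjusted p = 0.715 from edgeR), and miR-128-3p, a repressor of the LDL receptor (0.25, standard error 0.077, adjusted p = 0.314 from edgeR). The smallest were those of miR-33a-5p, the intronic miRNA of SREBF2 that represses the cholesterol exporter ABCA1 (-0.72, standard error 0.25, adjusted p = 0.314 from edgeR), and miR-29b-3p, a repressor of collagen genes (-0.40, standard error 0.10, adjusted p = 0.295 from edgeR). Without control replicate 3, 6 of the 22 passed, with miR-33a-5p, miR-29b-3p, miR-148a-3p and miR-96-5p lower and miR-128-3p and miR-182-5p higher, where 9.91% of all 565 miRNAs passed (38 lower and 18 higher).

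**Figure D4:**
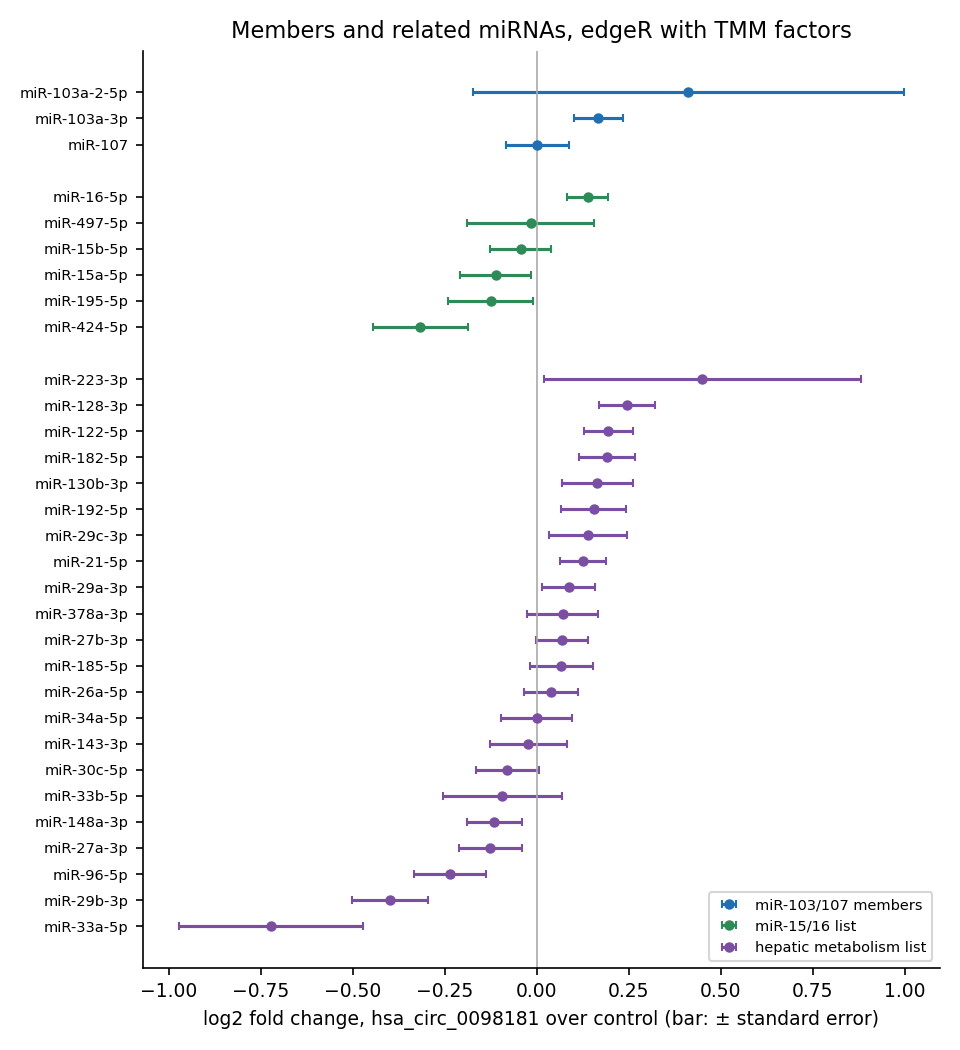
Log2 fold change with standard error of the 3 tested members, the 6 members of the miR-15/16 list and the 22 tested members of the hepatic metabolism list, with all 6 samples and TMM factors. miR-103a-3p (0.17) lies close to miR-16-5p (0.14) and as close to several miRNAs of the metabolism list. That list spreads from -0.72 for miR-33a-5p to 0.45 for miR-223-3p.

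The pattern of each guide strand over the 6 samples was compared with that of 151 other miRNAs with at least 100 CPM, using the SD of the log2 ratio, where 0 would be the same pattern. The smallest values for miR-103a-3p were those of miR-93-3p (0.0303), miR-28-3p (0.0322) and miR-191-5p (0.0356), against a median of 0.149. miR-107 was number 54 of the 151, with 0.114. For miR-107, the smallest values were those of miR-454-3p (0.0293), miR-27b-3p (0.0536) and miR-339-5p (0.0588), against a median of 0.131. In the order for miR-107, miR-103a-3p was number 50, so that in both orders the other guide strand lay below the median SD without being among the nearest miRNAs. The points share libraries and depth.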

How the data were processed

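miRNA sequencing of 6 Huh7 samples was used, grouped by the sample titles (3 overexpression, 3 control). The authors deposited counts, the reads assigned to each mature miRNA in each sample. The authors also deposited TPM values, which equal the count scaled to the sample's total (CPM) to within 0.00303 and hold no correction for length or composition. The submitters' processing notes list hg38, TopHat2 2.0.9, Bowtie and TopHat. Trimming, the miRNA annotation and how reads matching more than 1 miRNA were counted, which decide the division between miR-103a-3p and miR-107, are not given in the sources used here.

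Counts were compared with edgeR 4.0.16 in R 4.3.3. The filterByExpr function (minimum count 10, minimum total 15) kept 552 miRNAs with 99.98% of the counts, libraries were scaled by TMM, and the quasi-likelihood test had the group as the only term, with Benjamini-Hochberg adjustment and a threshold of 0.05. Ratios were computed within samples from counts with 0.5 added and tested by exact permutation (SciPy 1.17.1, two-sided, 20 assignments). As alternatives, upper-quartile factors, no factors, DESeq2 1.42.0, other filters, the replicate block, an added count of 5 and leaving out each sample were tried.

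The members, the miR-15/16 and metabolism lists and the tests were chosen with earlier results of these data known. Named miRNAs were all members, all tested miR-15/16 members, the 2 largest and 2 smallest fold changes of the metabolism list and those passing the threshold, the 3 nearest in pattern and the neighbours in abundance. Those of the lists named for the fit without control replicate 3 were named after their values were seen.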

Additional observations from a re-analysis of the deposited data

How the results depend on the processing

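The number of members with an adjusted p under 0.05, 0 with all samples, was 0 to 1 when a sample was left out, 1 without control replicate 3 alone, and 0 with every other alternative. The summed log2 fold change of miR-103a-3p and miR-107 was 0.13 to 0.20 when a sample was left out, with an adjusted p of 0.0255 from edgeR without control replicate 3 and of 0.464 to 0.989 in the other alternatives. The cause was not tested. The log2 fold change of miR-107, 0.0014, was -0.0051 with DESeq2, -0.11 with the library size alone, -0.019 without a filter, -0.00095 with at least 10 counts in every sample and -0.040 to 0.030 when a sample was left out, never with an adjusted p under 0.631. With the library size alone, the median of all miRNAs moved by as much. That of miR-103a-2-5p was -0.054 to 1.53, its log2 ratio to miR-103a-3p -0.090 to 1.38, and the difference in the share of all counts -0.0081 to 0.13 percentage points when a sample was left out. The lowest values came without control replicate 2, control replicate 2 and control replicate 1, and the causes were not tested. Between the groups, the log2 ratio of miR-107 to miR-103a-3p differed by -0.22 to -0.12. With 5 added to each count in place of 0.5, the log2 ratio of miR-103a-2-5p to miR-103a-3p differed by 0.34. Over all miRNAs tested, the number with an adjusted p under 0.05 in edgeR was 0 with all samples, 3 with the library size alone, 6 without a filter, 56 without control replicate 3 and 0 otherwise. The sources used here do not say whether samples with the same number belong together, and the main fit treated them as unpaired. The r of the deviations was -0.025, 0.15 and 0.24 for the same number and -0.27 to 0.20 for different numbers. With so few pairs these values cannot decide it. With the replicate block, the log2 fold changes of miR-103a-3p and miR-107 were 0.17 and 0.0016 and that of their sum 0.16, the paired differences of the 3 ratios were -0.17, 0.66 and 0.030, and no call changed. Of 35 alternative values for single miRNAs, 26 kept direction and side of the threshold. The filter of 10 counts in every sample left no value for miR-103a-2-5p.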
